A study of Mus musculus with 6 samples.

Results

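Flavin monooxygenases and aldehyde oxidases are oxidising enzymes of liver that act on drugs, dietary amines and aldehydes, and 5 of their genes were followed here across 6 mouse livers. The genes were Fmo1, Fmo2, Fmo5, Aox1 and Aox3, chosen by name, and they are 5 of 35082 genes to which the deposited transcripts could be assigned. Liver RNA came from male mice, 8 weeks old when a 20-week high-fat diet began, to ask how loss of the RNA-binding protein G3BP1 in hepatocytes changes the liver transcriptome. Controls were 3 mice with floxed G3bp1 alleles and no Cre (genotype G3BP1f/f), which the sample titles call wild-type. The other group was 3 mice with the same floxed alleles and Cre under the albumin promoter (genotype Alb-cre, G3BP1f/f), titled liver-specific conditional knockout of G3BP1. All 6 mice carried the floxed alleles and ate the high-fat diet, so no animal on another diet is compared. The albumin promoter is active in hepatocytes, and which liver cells lost or kept the gene in these animals was not measured here.

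Libraries held 20899135 to 21750007 estimated counts. Values by library are given in replicate order throughout. G3bp1 itself measured 44.1, 34.8 and 40.5 CPM (counts scaled to library size) in controls and 44.0, 30.0 and 31.5 CPM in the other group, with a log2 difference of -0.18 (edgeR adjusted p = 0.91). The targeted gene did not set the groups apart, and the animals are therefore called control and knockout-labelled. No source used here says which exons Cre removes. Along the first principal component (47.5% of variance), control replicates 1 and 3 lay on the side of knockout-labelled replicate 1, and control replicate 2 on that of knockout-labelled replicates 2 and 3. Knockout-labelled replicates 2 and 3 also had the highest mitochondrial shares of counts, 9.19% and 10.2% against 7.22% to 7.64% in the other 4 libraries. The hepatocyte list, led by Alb, Apoa1 and Trf, was detected in full, with a summed level of 48900 to 72200 TPM (abundance scaled to transcript length and library total) in controls and 47900 to 78300 TPM in knockout-labelled livers.

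Flavin monooxygenases sit in the endoplasmic reticulum and use NADPH, oxygen and a bound FAD to oxidise soft nitrogen and sulfur atoms. FMO1 is a broad drug-oxidising form, FMO2 is best known as a lung enzyme, and FMO5 differs in carrying out Baeyer-Villiger oxidation of ketones. Aldehyde oxidases are cytosolic enzymes that need the molybdenum cofactor and FAD and that oxidise aldehydes, nitrogen heterocycles and methylated nicotinamide. Mice have a cluster of these genes, of which AOX1 and AOX3 are the liver forms.

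The annotated positions are on GRCm38. Fmo1 (ENSMUSG00000040181) lies on chromosome 1 from 162829561 to 162866610 and Fmo2 (ENSMUSG00000040170) from 162874317 to 162898726, both on the minus strand of the same cluster. Aox1 (ENSMUSG00000063558), from 58029931 to 58106413, and Aox3 (ENSMUSG00000064294), from 58113130 to 58200698, are neighbours on the plus strand of chromosome 1. Fmo5 (ENSMUSG00000028088) stands apart on chromosome 3, from 97628804 to 97655282 on the plus strand. The coding sequences of Aox1 and Aox3, of 3999 and 4005 bases without the stop codon, were 66.2% identical. Those of Fmo1, Fmo2 and Fmo5 were 59.0% to 61.7% identical to each other. No stretch of 25 bases was shared between the transcripts of these pairs, so reads of that length matching both members of a pair exactly are not present in the annotated sequences.

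The start of the coding sequence is shown for the 3 flavin monooxygenases because it holds the codons of the glycine-rich FAD-binding fingerprint, and because the results on Fmo2 turn on whether this exon was counted. Each run gives the first 60 coding bases from the GENCODE M21 transcripts, 5′ to 3′, at chr1:162859497-162859556 (minus) for Fmo1, chr1:162898246-162898305 (minus) for Fmo2 and chr3:97629061-97629120 (plus) for Fmo5. Capitals mark 6 codons of which codons 1, 3 and 6 encode glycine. They were found in frame by the GG that opens each of these 3 codons.
Fmo1: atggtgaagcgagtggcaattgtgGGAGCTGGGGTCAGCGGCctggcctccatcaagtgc
Fmo2: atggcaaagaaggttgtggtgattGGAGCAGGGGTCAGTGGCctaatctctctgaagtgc
Fmo5: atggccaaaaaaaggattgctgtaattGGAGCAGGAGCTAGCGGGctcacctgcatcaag
The pattern begins at coding base 25 in Fmo1 and Fmo2 and at base 28 in Fmo5.

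None of the 5 genes passed the threshold in the comparison of the groups. The edgeR quasi-likelihood test called 0 of 12497 genes (0%) at a Benjamini-Hochberg adjusted p under 0.05, while an unadjusted p under 0.05 was reached by 568 genes (4.55%), 2.65% of all genes with a higher level in knockout-labelled livers. Among the members only Aox1 had such a p, on the higher side. DESeq2 called 11 genes (0.0881%), none of them a member, and limma voom 0. The log2 difference lay above 0 for 3 of 5 members and for 51.6% of all genes. Aox1 was the only member whose groups did not overlap, and it lay higher in the knockout-labelled livers. Of all genes tested, 4.79% were free of overlap in that direction, 4.55% in the other and 9.34% in either, and a count of 1 among 5 genes is given as a description only.

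**Figure D1:**
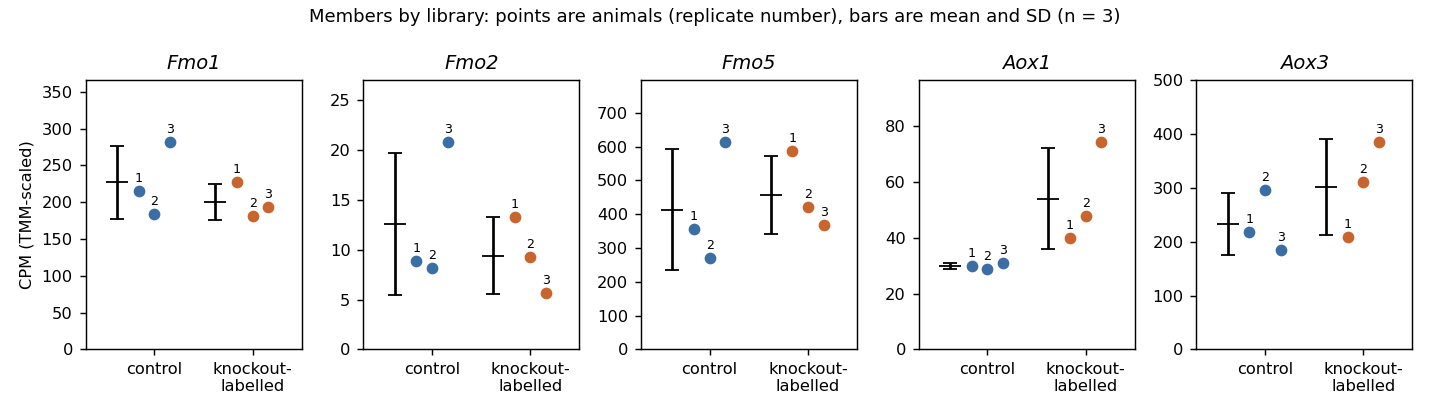
TMM-scaled CPM (y axis, from 0) of each member in control and knockout-labelled livers (x axis), 1 point per animal with its replicate number, and mean and SD beside the points. The 3 knockout-labelled Aox1 points, from 39.8 to 74.4 CPM, lie above the controls, while the other 4 members overlap.

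Aox1, the broad aldehyde oxidase, was nearly uniform among controls and spread out among knockout-labelled livers. It measured 29.9, 28.9, 31.0 CPM among controls, against 39.8, 47.8, 74.4 CPM among knockout-labelled livers. Every knockout-labelled value lay above every control, and replicate 3 stood highest. The means were 29.9 ± 1.03 and 54.0 ± 18.1 CPM (SD, n = 3 each), a log2 difference of 0.85 with a standard error of 0.25 and a 95% interval of 0.15 to 1.56. The edgeR adjusted p was 0.84, and 0.504% of all genes tested had a smaller p. Without knockout-labelled replicate 3 the log2 difference was 0.55. It was 0.66 after correction for transcript length and GC content within libraries. With a term for the division along the first principal component it was 0.73. The part of these library properties in the Aox1 values was not tested. Within the libraries that the first principal component placed together, Aox1 was 29.9 and 31.0 CPM in controls against 39.8 CPM, and 28.9 CPM in the control against 47.8 and 74.4 CPM. Each set has 1 library on a side and the component comes from the same data, so division and group cannot be told apart here. Beside these values, 9 of 10 pericentral hepatocyte markers lay below 0 (median -0.48), with 0 called. Lower without overlap were 4 of the 10, beside 4.55% of all genes. Of 10 periportal markers 9 lay above 0 (median 0.31), with 0 called. Without control replicate 3, 7 of 10 pericentral markers lay below 0. Without knockout-labelled replicate 1, 5 of 10 periportal markers lay below 0 (median 0.16), and without control replicate 2, 4 of 10 did. The part of both lists in the Aox1 values was not tested.

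Aox3, the most abundant aldehyde oxidase of these livers, had overlapping groups. It measured 218, 296, 185 CPM among controls, against 208, 312, 386 CPM among knockout-labelled livers. Knockout-labelled replicate 1 lay below control replicates 1 and 2, and replicates 2 and 3 were the 2 highest libraries. The means were 233 ± 57.2 and 302 ± 89.1 CPM (SD, n = 3 each), a log2 difference of 0.37 with a 95% interval of -0.45 to 1.2 (edgeR adjusted p = 0.86). It was 0.16 without knockout-labelled replicate 3, 0.24 without control replicate 3 and 0.58 without control replicate 2 or knockout-labelled replicate 1. Correction for transcript length and GC content within libraries gave 0.19, and a term for the division along the first principal component gave 0.14. The part of those library properties in the Aox3 values was not tested.

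Per length, Aox3 exceeded Aox1 in every library. The ratio of Aox3 to Aox1 in TPM was 7.27, 10.1, 5.87 among controls, against 5.16, 6.57, 5.31 among knockout-labelled livers. Control replicate 3 fell between the knockout-labelled values, so the groups overlap in this ratio. At least 94.2% of Aox1 counts and 99.7% of Aox3 counts lay on protein-coding transcripts in each library. The Aox1 transcript that retains introns took 1.25%, 0.386% and 0.619% of Aox1 counts in the controls and 0.772%, 2.35% and 5.80% in knockout-labelled livers. These shares rest on 2.0 to 103.1 counts, and knockout-labelled replicates 2 and 3 stood highest. The share of all counts on transcripts of that kind was 1.93% and 1.99% in them and 1.33% to 3.23% in the other libraries. Fmo1 was also highest in them by this share, at 1.94% and 1.43% against 0.233% to 0.360%. Fmo5 was lowest in them, at 0% and 0.0914% against 0.104% to 0.471%. Neither Aox3 nor Fmo2 had its 2 highest shares there, and the cause was not tested.

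The promoters of Aox1 and Aox3 are shown because these neighbours are the liver forms and both had their highest value in knockout-labelled replicate 3. RefSeq windows were found for 4 of 5 members. Those printed are from GRCm38.p6, 250 bases before to 50 after the start, both on the plus strand, at chr1:58029719-58030018 and chr1:58112886-58113185. Capitals mark matches to the searched motifs.
Aox1: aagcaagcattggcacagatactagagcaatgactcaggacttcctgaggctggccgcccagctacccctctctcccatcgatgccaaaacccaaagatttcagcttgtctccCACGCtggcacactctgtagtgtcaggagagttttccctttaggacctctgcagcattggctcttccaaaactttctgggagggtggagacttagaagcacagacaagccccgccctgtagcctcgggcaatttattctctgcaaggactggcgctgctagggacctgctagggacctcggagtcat
Aox3: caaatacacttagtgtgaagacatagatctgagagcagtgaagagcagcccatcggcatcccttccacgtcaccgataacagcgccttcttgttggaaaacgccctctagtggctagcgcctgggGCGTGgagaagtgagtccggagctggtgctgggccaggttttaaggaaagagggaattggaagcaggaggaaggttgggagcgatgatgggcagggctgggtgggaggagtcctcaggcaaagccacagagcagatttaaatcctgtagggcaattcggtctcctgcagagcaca
The motifs, read on both strands, were the NRF2 antioxidant response core TGACNNNGC, the aryl hydrocarbon receptor core GCGTG, the TATA box TATAAA and the E-box CACGTG, whose letters do not overlap in these windows. Each window held 1 match to GCGTG, beginning 137 bases before the Aox1 start on the minus strand and 125 bases before the Aox3 start on the plus strand, and none to the other 3. Of 32851 promoter windows of that length, 32.4% held GCGTG, 12.4% TGACNNNGC, 13.6% TATAAA and 7.15% CACGTG.

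Fmo5 had the highest mean CPM of the members in each group, and its groups overlapped. It measured 356, 269, 614 CPM among controls, against 588, 420, 367 CPM among knockout-labelled livers. Aox3 lay above it in control replicate 2 (296 CPM) and in knockout-labelled replicate 3 (386 CPM). Among the Fmo5 values, control replicate 3 was the highest library and control replicate 2 the lowest. The means were 413 ± 179 and 458 ± 115 CPM (SD, n = 3 each), a log2 difference of 0.15 with a 95% interval of -0.82 to 1.12 (edgeR adjusted p = 0.95). Leaving out 1 library turned its direction in 2 cases, to -0.08 without control replicate 2 and to -0.07 without knockout-labelled replicate 1. Leaving out control replicate 3 gave 0.56, control replicate 1 gave 0.05 and knockout-labelled replicate 3 gave 0.29. It was 0.41 with a term for the division along the first principal component, 0.37 under library totals, 0.31 with transcript lengths as an offset and 0.04 after the correction for length and GC content. Library totals raised the median over all genes by 0.26.

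Fmo1, the drug-oxidising form, varied least among the flavin monooxygenase members. It measured 215, 184, 282 CPM among controls, against 228, 181, 193 CPM among knockout-labelled livers. Control replicate 3 stood highest, and the ratio of the highest to the lowest library was 1.56, against 2.28 for Fmo5 and 3.71 for Fmo2. The log2 difference was -0.18 with a 95% interval of -0.84 to 0.48 (edgeR adjusted p = 0.92). It was 0.02 without control replicate 3. Under plain library totals, which raised the median over all genes by 0.26, it was 0.07 and so still lay below that median.

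Fmo2, best known from lung, was low in these livers and highest in control replicate 3. It measured 8.84, 8.16, 20.8 CPM among controls, against 13.3, 9.25, 5.62 CPM among knockout-labelled livers. The groups overlapped, and the lowest library was knockout-labelled replicate 3. The log2 difference was -0.43 with a 95% interval of -1.63 to 0.78 (edgeR adjusted p = 0.89), and it turned to 0.15 when control replicate 3 was left out. Leaving out knockout-labelled replicate 3 gave -0.16, knockout-labelled replicate 1 gave -0.77 and control replicate 2 gave -0.66. With a term for the division along the first principal component it was -0.15, under library totals -0.22 and with sample weights in limma voom -0.71. Of 6 lung epithelial markers, Sftpc and Sftpb were at 0 in all libraries, and the list summed to 0.352 to 1.21 TPM in controls and 0.801 to 1.15 TPM in knockout-labelled livers.

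**Figure D2:**
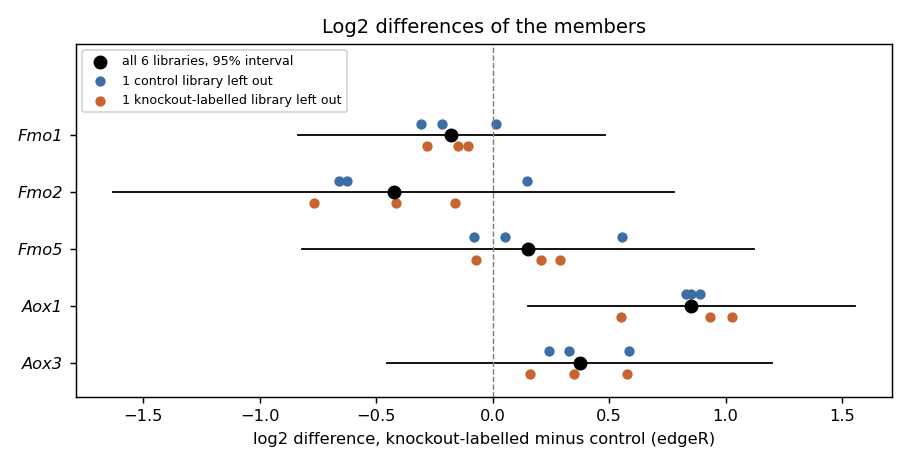
Log2 difference, knockout-labelled minus control (x axis, edgeR), of each member (y axis), with its 95% interval in black and the value after leaving out 1 library in colour. The Aox1 interval runs from 0.15 to 1.56, and those of the other 4 members include 0.

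Nearly all Fmo2 counts lay on a transcript without the first coding exons. Fmo2-206 is annotated as a retained-intron transcript that begins inside an intron, 64 bases before the fifth exon of the coding transcript Fmo2-201, and then follows exons 5 to 9 of it. It holds 1121 of the 1605 coding bases and lacks the FAD-binding codons shown above. Fmo2-206 took 96.4%, 94.1%, 96.4% of Fmo2 counts among controls, against 99.4%, 96.3%, 77.6% among knockout-labelled livers. Knockout-labelled replicate 3, the lowest library for Fmo2, had the smallest share. Transcripts that hold the whole first coding exon received 6.0, 8.8 and 15.8 counts in controls and 2.0, 7.7 and 30.0 counts in knockout-labelled livers, of gene totals of 134 to 437 counts. For Fmo5, Aox1 and Aox3 such transcripts held nearly all counts, and for Fmo1 they held 77.4% to 85.0%.

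The first 100 bases of Fmo2-206 are shown because they mark where its annotated sequence departs from the coding transcript. They lie at chr1:162886416-162886515 on the minus strand of GRCm38, with the 64 intronic bases in lower case and the first 36 bases of the shared exon in capitals.
Fmo2-206: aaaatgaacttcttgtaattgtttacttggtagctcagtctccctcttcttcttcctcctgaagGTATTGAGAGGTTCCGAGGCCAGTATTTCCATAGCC
The intronic part ends in ag, the acceptor dinucleotide of the splice site before the exon. These 64 bases are the part of Fmo2-206 that Fmo2-201 lacks, and the division of counts between them is an estimate of the authors' quantification.

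**Figure D3:**
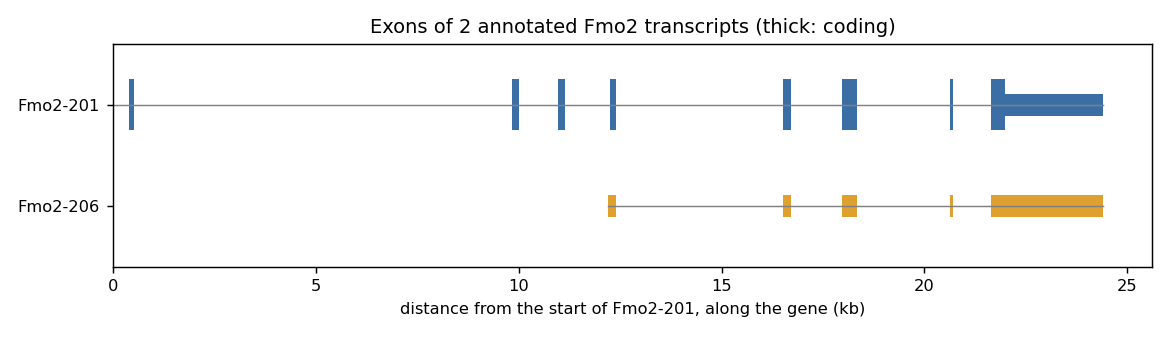
Exons of Fmo2-201 and Fmo2-206 along the gene (x axis, distance in kb from the start of Fmo2-201, in the direction of transcription), thick where coding. The first exon of Fmo2-201, of 41 bases, is too narrow to see, and Fmo2-206 begins 12197 bases downstream and holds none of the first 4 exons.

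Fmo1 and Fmo5 also divided their counts among transcripts. Fmo1-201 encodes the full protein and took 76.4% to 83.1% of Fmo1 counts. Fmo1-205, an annotated processed transcript of 584 bases, joins 36 bases outside Fmo1-201 to 548 bases of the last exon, of which 340 are coding. Fmo1-205 took 13.9%, 21.5%, 19.7% among controls, against 20.6%, 12.8%, 11.7% among knockout-labelled livers. In TPM, which divides by length, Fmo1-205 made up 45.8% to 63.6% of the Fmo1 level.

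For Fmo5, Fmo5-201, Fmo5-202 and Fmo5-203 share the same 1599 coding bases and differ in untranslated sequence. Fmo5-203 has a last exon of 3801 bases, against 1073 and 1123 bases in Fmo5-201 and Fmo5-202. Fmo5-203 took 61.8%, 57.5%, 73.4% of Fmo5 counts among controls, against 63.5%, 47.4%, 45.1% among knockout-labelled livers. The lowest shares were those of knockout-labelled replicates 2 and 3, and replicate 1 lay within the controls. Fmo5-201 received 0, 104.3 and 131.9 counts in the controls and 0, 1357.1 and 1627.0 counts in knockout-labelled livers. Fmo5-201 holds 18 bases that Fmo5-203 lacks, and their first exons have 82 and 98 bases. Genes with transcripts of up to 800 bases had a median deviation of 0.17 to 0.33 (log2) in 4 libraries, but of -0.34 and -0.62 in knockout-labelled replicates 2 and 3, and the part of this in the transcript shares was not tested.

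**Figure D4:**
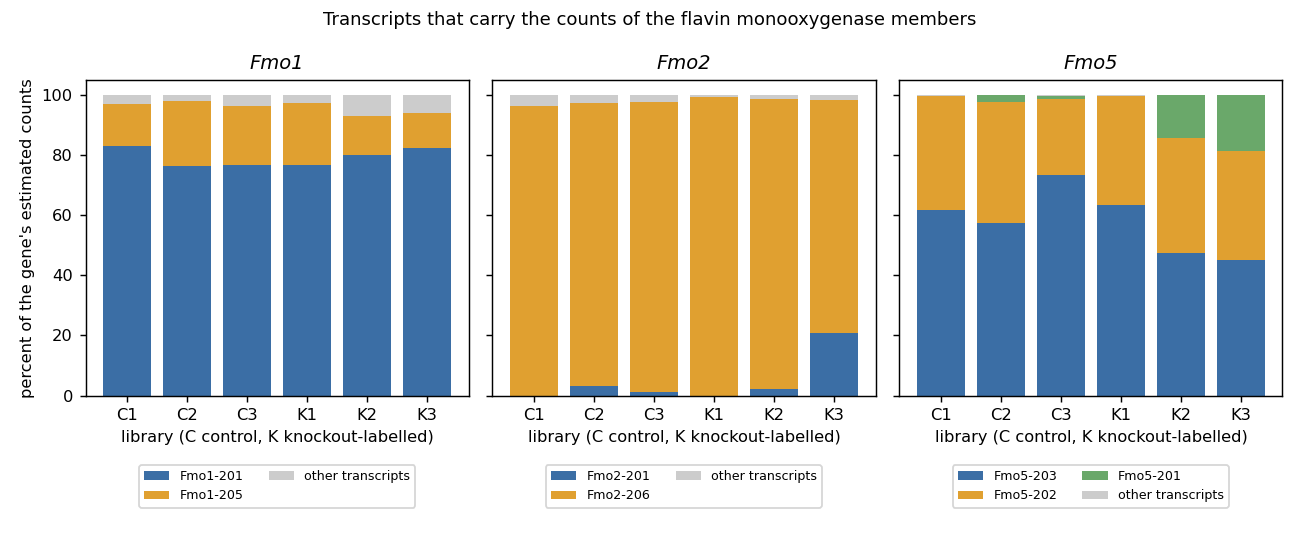
Percent of the estimated counts of Fmo1, Fmo2 and Fmo5 (y axis) on their main transcripts, in control libraries C1 to C3 and knockout-labelled libraries K1 to K3 (x axis). Fmo2-206 fills at least 77.6% of every Fmo2 bar, and Fmo5-201 is visible mainly in K2 and K3, at 14.3% and 18.6%.

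The order of the members by level per length depended on which transcripts were summed. Over all transcripts the deposited TPM averaged 149 ± 37.2 for Fmo1, 103 ± 34.2 for Fmo5, 50.5 ± 21.7 for Aox3, 8.09 ± 4.57 for Aox1 and 2.71 ± 1.34 for Fmo2 (SD over 6 libraries). Fmo1 and Fmo5 are neighbours in this order whose spreads overlap, and Fmo1 was the higher of the pair in each library. Over protein-coding transcripts alone Fmo5 was the higher of the pair in each library, at 52.2 to 130 TPM against 43.6 to 80.2 TPM for Fmo1. Fmo2 measured 0 to 0.284 TPM on these transcripts, below Aox1 at 4.46 to 15.7 TPM.

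The ratio of Fmo5 to Fmo1 in protein-coding TPM was 1.18, 1.2, 1.52 among controls, against 1.93, 1.89, 1.57 among knockout-labelled livers. The groups did not overlap in this ratio, and no test was made of it. The share of gene pairs free of overlap was not computed. In estimated counts the ratio was 1.66, 1.47 and 2.18 in controls and 2.58, 2.32 and 1.90 in knockout-labelled livers, where the groups overlap. In TPM over all transcripts, Fmo5 to Fmo1 and Fmo5 to Fmo2 were also free of overlap, but Fmo1 to Fmo2 and Aox3 to Aox1 were not. Fmo5-201 took 0%, 14.3% and 18.6% of Fmo5 counts in knockout-labelled livers and 0% to 2.12% in controls. The part of these shares in the ratio of Fmo5 to Fmo1 was not tested. The deposited file of knockout-labelled replicate 1 differs in its effective lengths, and transcripts of 100 bases had a median effective length of 3.50 bases in it and of 100 bases in the others. The effective length of Fmo1-205 was 334 bases in that library and 322.3 to 342.3 bases in the others.

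**Figure D5:**
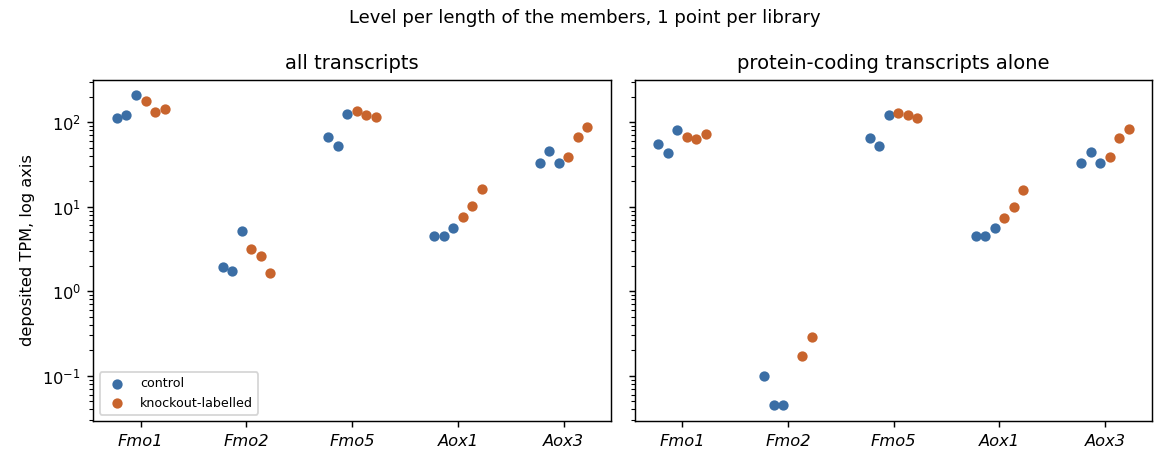
Deposited TPM (y axis, log scale) of each member (x axis), summed over all transcripts on the left and over protein-coding transcripts on the right, 1 point per library. Fmo1 lies above Fmo5 on the left and below it on the right, and Fmo2 drops to at most 0.284 TPM, with knockout-labelled replicate 1 at 0 and not drawn.

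Among the other genes of these families, Fmo4 passed the filter on low counts. Fmo4 measured 8.15, 8.82, 6.77 CPM among controls, against 5.65, 7.13, 9.31 CPM among knockout-labelled livers, with overlapping groups and a log2 difference of -0.10 (edgeR adjusted p = 0.95), which was 0.05 without knockout-labelled replicate 1. Aox2 had 7 counts and Aox4 1 count over all libraries. Fmo6 and Fmo9 had 0 counts in each library, which allows up to 0.138 to 0.144 CPM (3 counts, covering counting error only).

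Some genes followed the members closely over the 6 libraries, which is a description with no test, since 6072 genes of at least 10 CPM were searched. Fmo2 was followed most closely by Clec1b, a C-type lectin receptor (Pearson r = 0.99 over 6 libraries), and Gpihbp1, which anchors lipoprotein lipase on capillary endothelium (r = 0.98). Clec1b measured 11.3, 11.4 and 26.0 CPM in controls and 17.4, 11.4 and 8.51 CPM in knockout-labelled livers, the same high and low libraries as Fmo2. All 10 sinusoidal endothelial markers were tested, 8 above 0 and 0 called, none was at 0, and the list summed to 54.4 to 92.7 TPM in controls and 63.5 to 144 TPM in knockout-labelled livers. Without control replicate 1 or without knockout-labelled replicate 2, 5 of 10 of these markers lay below 0. Their part in the Fmo2 values was not tested. In bulk tissue fewer cells of a type and less RNA per cell cannot be told apart.

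Fmo1 was followed by Marco, a macrophage scavenger receptor, and Lgals3, the lectin galectin-3 (r = 0.99 and 0.98). Marco measured 7.56, 2.35 and 96.6 CPM in controls and 19.1, 2.12 and 6.12 CPM in knockout-labelled livers, so that control replicate 3 stood highest by far. All 10 Kupffer cell and macrophage markers were tested, 10 below 0 and 0 called, none was at 0, and the list, led by C1qa, C1qb and Clec4f, summed to 146, 216 and 538 TPM in controls and 196 to 259 TPM in knockout-labelled livers. Without control replicate 3, 5 of 10 of these markers lay below 0. Their part in the Fmo1 values was not tested. Fmo5 was followed by Tcim and the zinc transporter Slc39a4 (r = 1.00 and 0.99). Aox1 was followed by Nfkb1, a subunit of NF-kappaB, and Mapk1ip1l (r = 0.97 each), and Aox3 by Bsdc1 and Lrrc8d, a subunit of volume-regulated anion channels (r = 0.99 each). With r above 0.9 there were 39 genes for Fmo1, 39 for Fmo2, 32 for Fmo5, 49 for Aox1 and 154 for Aox3.

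Genes that supply these enzymes with cofactors did not pass the test either, with 0 called in each list. Of 9 genes of molybdenum cofactor synthesis and other molybdenum enzymes, 5 lay above 0 with a median log2 difference of 0.05, beside 0.01 for all genes. Mtarc2, an amidoxime-reducing molybdenum enzyme, measured 412 ± 24.4 CPM in controls and 270 ± 79.2 CPM in knockout-labelled livers (SD, n = 3 each, log2 difference -0.61), without overlap. It was the 1 gene of these 9 without overlap, beside 4.55% of all genes in that direction. Xdh, the xanthine dehydrogenase related to the aldehyde oxidases, measured 59.9 ± 8.68 and 86.1 ± 19.0 CPM (0.52), and Mocos, which activates the cofactor for both, had a log2 difference of 0.26.

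All 3 tested genes of riboflavin transport and FAD synthesis lay below 0, with a median of -0.19. They were Flad1 and Rfk, the enzymes that make FAD and FMN, at -0.26 and -0.19, and the transporter Slc52a2 at -0.07. Flad1 turned to 0.07 without control replicate 1, and Slc52a2 to 0.05 and 0.02 without knockout-labelled replicate 1 or 2. Of 12 genes of NADPH supply and microsomal electron transfer 6 lay above 0, with a median of 0.05. Idh1, a cytosolic source of NADPH, measured 294 ± 31.7 and 210 ± 22.0 CPM (log2 difference -0.49), and Cyb5a, cytochrome b5, 2046 ± 97.4 and 1419 ± 112 CPM (-0.53), both without overlap. These were 2 of the 12 genes, beside 4.55% of all genes in that direction. G6pdx, which opens the pentose phosphate pathway, had -0.39, and -0.10 without control replicate 3.

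Genes of the substrates and regulators of these enzymes were likewise not called. Of 10 genes of nicotinamide methylation and NAD synthesis 8 lay below 0 (median -0.25), and those with the smallest p were Nmrk1 (-0.49), Aspdh (-0.38) and Nampt (-0.34). Nampt measured 92.0 CPM in control replicate 3 and 34.7 to 54.2 CPM in the other 5 libraries, and its log2 difference was 0.10 without that library. Of 8 tested aldehyde dehydrogenases 5 lay above 0 with a median of 0.11, and those with the smallest p were Aldh1b1 (0.81), Aldh2 (0.41) and Aldh9a1 (-0.22), of which Aldh9a1 turned to 0.05 without control replicate 1. Of 13 tested NRF2 target genes 9 lay above 0 with a median of 0.10. Gclc, the catalytic subunit of glutamate-cysteine ligase, measured 172 ± 34.1 and 265 ± 108 CPM (0.63), and Srxn1 had 0.32, or 0.07 without knockout-labelled replicate 3. Gstm3 measured 11.7, 7.06, 42.0 CPM among controls, against 95.4, 11.6, 11.8 CPM among knockout-labelled livers, and its log2 difference of 0.96 turned to -0.80 without knockout-labelled replicate 1.

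Of 16 transcription factors and receptors of hepatic drug metabolism 10 lay above 0, with a median log2 difference of 0.05. Foxa2, a hepatocyte transcription factor, had 0.62, and Cebpb, a factor of the acute-phase response, -0.64. Stat5b, which relays growth hormone signals, lay higher without overlap (0.39), and Nr1h4, the bile acid receptor, lower without overlap (-0.18). That is 1 of 16 genes in each direction, beside 4.79% of all genes higher and 4.55% lower. Stat5b and Nr1h4 were named after their values were seen. Male-biased liver genes had a median of -0.74, with 12 of 14 tested below 0, and their summed level was 25800, 33100, 12900 TPM among controls, against 14900, 11400, 35900 TPM among knockout-labelled livers. Control replicate 3 lay with the low libraries in that sum, and knockout-labelled replicate 3 was the highest. Leaving out control replicate 2 brought the median to -0.31, while it stood at -1.26 once knockout-labelled replicate 3 was left out. The oxysterol hydroxylase Cyp7b1 had -1.48, the urinary protein gene Mup12 -2.21 (-0.74 and -1.34 without control replicate 2) and the fatty acid elongase Elovl3 1.02. Of 10 tested female-biased genes 6 lay below 0 with a median of -0.61, and the median was 0.43 when control replicate 3 was left out. Cyp2b13 measured 0.586, 0.438, 24.6 CPM among controls, against 0.863, 1.81, 0.629 CPM among knockout-labelled livers, so that its log2 difference of -2.96 rested on control replicate 3 and was 1.10 without it. Acot3 had -1.32, and -0.53 without control replicate 2. Cyp2c40 measured 0.04 ± 0.06 CPM in controls and 2.16 ± 1.98 CPM in knockout-labelled livers (SD, n = 3 each), without overlap. By library it was 0, 0.110 and 0 CPM in controls, at the floor, and 4.44, 0.974 and 1.05 CPM in knockout-labelled livers. It passed the filter on low counts only through the knockout-labelled group, so the lack of overlap is a description only. Of the 10 genes, 1 lay higher and 1 lower without overlap, beside 4.79% and 4.55% of all genes.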

How the data were processed

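Per the file headers, which follow Salmon's layout, the authors deposited estimated counts and TPM for 115221 transcripts in each library. Estimated counts as deposited carry no depth scaling, and the deposited TPM values are scaled by the authors per effective length and to 1 total within each library. Names listed in the submitters' processing notes, with no role, are GRCm38, DESeq, RSEM 1.2.8 and Bowtie2 2.2.5.

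Transcripts were assigned to GENCODE M21 genes without their version (113664 matched, 13 with it, 1557 left out, at most 0.268% of counts). Estimated counts were summed per gene and rounded. Genes passing filterByExpr (12497) entered edgeR 4.0.16 (R 4.3.3) with TMM factors, where a two-sided quasi-likelihood test was adjusted by Benjamini-Hochberg. Standard errors are the absolute log2 difference over the square root of F, and intervals use 4 residual degrees of freedom. DESeq2 1.42.0 and limma 3.58.1 were alternatives. Likeness is Pearson r of log2 CPM with a prior count of 2. Named genes are the members, their families, G3bp1, up to 3 per list by p at a mean of at least 1 CPM, for cell types by TPM, and the 2 most like each member; some named genes are not reported here. The tests were tested on simulated data. The members and lists were chosen with earlier results of these data known. The labels number the replicates of each group, and each replicate is taken throughout as a separate mouse. On that reading p-values measure the spread between animals. No source used here states the strand, so reads of overlapping genes cannot be told apart.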

Additional observations from a re-analysis of the deposited data

How the results depend on the processing

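The directions of Aox1 and Aox3 held in all 19 alternatives tried for each, from 0.55 to 1.12 for Aox1 and from 0.14 to 0.66 for Aox3, and no member passed the threshold in any of them. Both upper ends were those under library totals, where the median of all genes rose by 0.26. With 1 library left out, the log2 difference ran from 0.55 to 1.03 for Aox1, 0.16 to 0.58 for Aox3, -0.31 to 0.016 for Fmo1, -0.77 to 0.15 for Fmo2 and -0.081 to 0.56 for Fmo5. Fmo1 measured 0.065 under library totals, which raised the median of all genes by 0.26. Fmo5 turned with sample weights in limma voom (-0.036), and the cause was not tested. Other settings gave -0.71 to -0.15 for Fmo2 and up to 0.41 for Fmo5. Over all genes edgeR called 0, DESeq2 11 (6 higher, 5 lower), and leaving out 1 library 0 to 3, with 3 without knockout-labelled replicate 1. Leaving out 1 library, chosen for the lists after seeing the data, moved the median of the molybdenum list between -0.09 and 0.12 and that of the NADPH list between -0.06 and 0.07. Samples with the same replicate number did not all deviate together (correlations of 0.20, 0.28 and -0.15), and the replicate block gave 0 calls, with Aox1 at 0.80 and Aox3 at 0.35. Not every sample correlated best with its own number. Protein-coding transcripts alone, chosen after seeing the data, gave 0.81 for Aox1, and Fmo2 did not pass the filter there, nor with at least 10 CPM in 3 libraries. Fits without 1 library assume that the remaining pair varies like the other group. With 3 animals a group the interval of the Fmo5 difference spans -0.82 to 1.12, so differences within that span are not excluded. The smallest change that could be detected was not computed.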
